A study of Mus musculus with 10 samples.

Results

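The extracellular matrix and stromal genes described here were 38 listed genes, of 55573 in the table, measured by RNA-Seq in mouse bone marrow–derived macrophages (BMDMs). The list held collagens, proteoglycans, matrix glycoproteins, crosslinking enzymes, a matrix protease, protease inhibitors and surface or contractile proteins of stromal cells. All 38 were found by symbol, and their levels in CPM (read counts brought to 1 common library total) sorted them into 3 classes. Of the 38, 11 were seen only with R848, having more than 3 reads in both R848 libraries and at most 3 reads in each of the 8 other libraries. Another 13 were expressed without R848, at 1 CPM or more in both libraries of at least 1 other group, and the remaining 14 met neither condition. Because the values in the R848 libraries chose the classes, levels with R848 are given below as a description, with no test.

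All cells came from female wild-type C57BL/6 mice and were grown with 50 ng/mL M-CSF, the growth factor that drives marrow precursors to become macrophages. They were treated for 4 hours in 5 groups of 2 libraries. These were vehicle, 5 μg polyU (a uridine ssRNA delivered with the lipid DOTAP), PNPi+dG/rG, both together (PNPi+dG/rG+polyU, below also the combination) and 1 ng/mL R848. PNPi+dG/rG was 1 μM ulodesine, which inhibits purine nucleoside phosphorylase, with 5 μM deoxyguanosine and 5 μM guanosine. R848 (resiquimod) is a synthetic small molecule that activates the endosomal RNA sensor TLR7, and the nucleosides and polyU are ligands for separate sites of the same receptor. The labels call the libraries biological replicates without saying whether these were separate mice or cultures, so the tests measure the spread between these libraries, which may be technical. The labels name DOTAP for the polyU groups alone.

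The extracellular matrix is the network of secreted proteins that holds tissues together. Fibroblasts and related stromal cells make most of it as collagens and glycoproteins, which lysyl oxidases crosslink and metalloproteinases cut, while tissue inhibitors of metalloproteinases restrain the cutting. Macrophages mainly remodel matrix, and they are known to make some of its components themselves, among them fibronectin, thrombospondin-1, versican and protease inhibitors.

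In vehicle the 38 genes together had little RNA apart from Timp2. The 13 expressed members summed to 458 and 468 CPM in the vehicle libraries, of which Timp2 alone held 423 and 435 CPM, and the other 25 members summed to 1.46 and 2.42 CPM. With R848 those 25 members summed to 375 and 376 CPM, while with PNPi+dG/rG+polyU they summed to 3.75 and 3.31 CPM. The combination of PNPi+dG/rG and polyU instead raised 7 of the 13 expressed members over vehicle, as it did 8.12% of the 11978 genes tested. Vcan, Lox, Thbs1, Col27a1 and Pdgfrb rose by more than 2 on the log2 scale, also with 1 CPM added to every value. Of the 7, 4 counted as expressed only through groups given polyU, a limit that is set out beside the counts below. The heat map of all 38 genes shows these blocks.

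**Figure D1:**
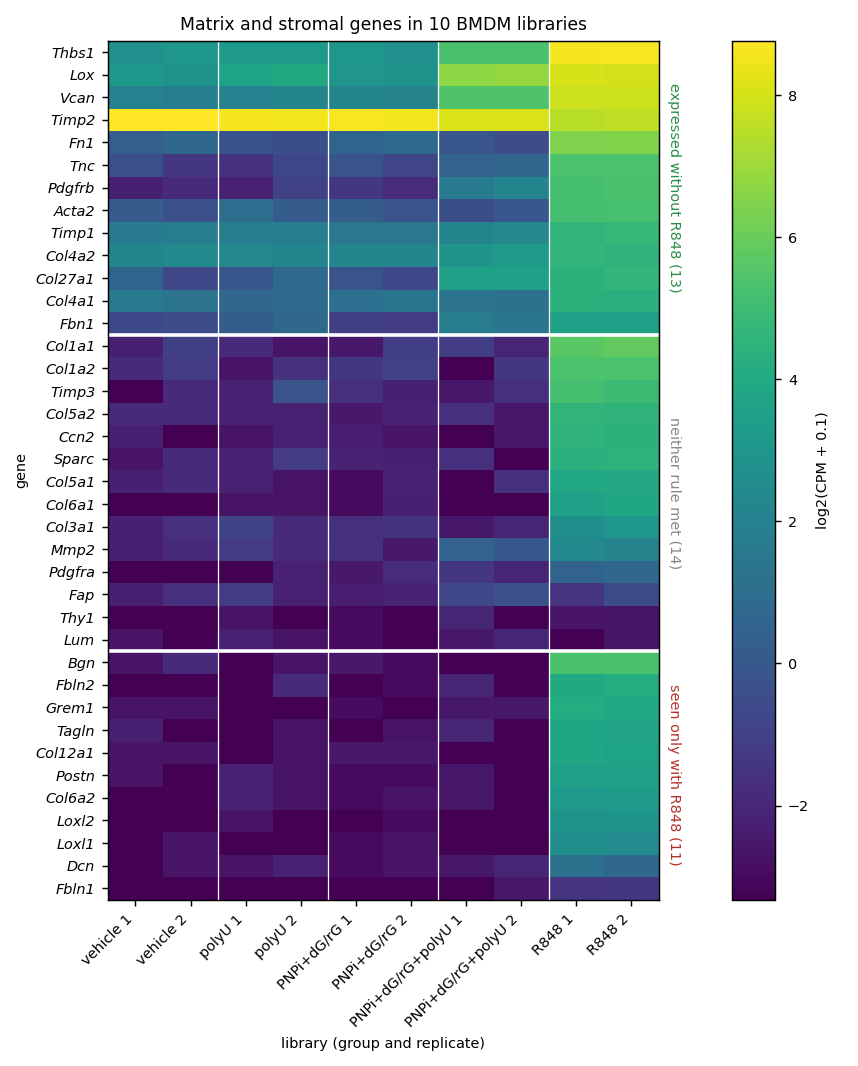
Level of each of the 38 genes (rows) in each of the 10 libraries (columns), as log2(CPM + 0.1), grouped by class and ordered within a class by the level with R848. The 25 genes of the 2 lower blocks are dark in the 8 libraries without R848, where they sum to at most 3.75 CPM a library, and Vcan, Lox, Thbs1 and Col27a1 are brighter in both PNPi+dG/rG+polyU libraries than in vehicle.

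Depth ran from 14128128 reads on genes, in a PNPi+dG/rG+polyU library, to 38392592, in a PNPi+dG/rG library, so that 3 reads were worth between 0.0781 and 0.212 CPM. Below these levels a gene was not detectable, which is not the same as absent. The class seen only with R848 depends on this limit. Bgn lay just inside it with 3 reads in a vehicle and in a PNPi+dG/rG library, and Col6a1 lay just outside it with 4 reads in 1 of the deep PNPi+dG/rG libraries. With a limit of 0.5 CPM in place of reads, 19 of 34 members over that limit were seen only with R848, as were 199 of 11367 genes, or 1.75%. Of the 14 members in neither class, 10 were over 1 CPM in both R848 libraries and under 1 CPM in all 8 others. Over the whole table, 240 of 13133 genes with more than 3 reads in both R848 libraries were seen only there, or 1.83%. At the limit of 1 CPM for expression, Tnc, with 1.34 and 1.48 CPM under PNPi+dG/rG+polyU, lay just inside, and Mmp2, with 1.27 and 0.915 CPM, lay just outside.

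Fibrillar collagens build the tension-bearing fibers of connective tissue. Col1a1 and Col1a2 encode the chains of type I collagen, the main collagen of bone and skin. Col1a1 (GRCm38 chromosome 11, 94936224 to 94953042) was at 0.112 and 0.393 CPM with vehicle, 0.170 and 0.0581 with polyU, 0.0781 and 0.374 under PNPi+dG/rG, 0.354 and 0.141 under the combination, and 51.6 and 58.3 with R848. Both R848 libraries stood far above the other 8, which overlapped one another at a few reads each. Pooled reads gave a ratio of R848 to vehicle of 221 for Col1a1 (95% interval 116 to 484, which covers counting error only). Col1a2 was at 40.9 and 40.2 CPM with R848 and at most at 0.401 CPM elsewhere. Col5a1 and Col5a2, chains of the type V collagen that sets fiber width, reached 14.6 and 15.4 CPM, and 24.0 and 23.3 CPM, with R848 and at most 0.211 and 0.212 CPM elsewhere. Col3a1, of the distensible type III collagen, was the lowest of these with R848, at 6.48 and 8.02 CPM, against at most 0.455 CPM elsewhere. These 5 genes met neither class rule because at least 1 library without R848 held 4 reads or more, at levels under 0.5 CPM.

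Col27a1, a fibrillar collagen of cartilage, was the exception in this group. It was at 1.40 and 0.506 CPM with vehicle, 0.852 and 1.63 with polyU, 0.755 and 0.508 under PNPi+dG/rG, 12.0 and 12.1 under the combination, and 21.8 and 25.2 with R848. The 6 libraries of the first 3 groups lay between 0.506 and 1.63 CPM, and both libraries of the combination lay above all 6. PNPi+dG/rG+polyU raised Col27a1 over vehicle by 3.84 ± 0.46 on the log2 scale (SE, adjusted p = 4.07e-05). Its rise over polyU was 3.36 ± 0.46 (adjusted p = 0.000140). Col27a1 passed the limit for expression through PNPi+dG/rG+polyU alone, as did Tnc and Pdgfrb, so its selection was not independent of this comparison.

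Basement membranes are sheets under epithelia and around vessels whose core is type IV collagen. Its 2 main chains are encoded by Col4a1 and Col4a2, neighbors on chromosome 8 that are transcribed in opposite directions from start sites 21 bases apart in RefSeq (GRCm38.p6, positions 11312826 and 11312805). Col4a1 was at 3.14 and 2.30 CPM with vehicle, 1.53 and 1.74 with polyU, 2.03 and 2.51 under PNPi+dG/rG, 2.34 and 2.25 under the combination, and 21.7 and 20.2 with R848. Col4a2 was at 4.55 and 5.17 CPM with vehicle, 4.66 and 4.30 with polyU, 4.56 and 4.38 under PNPi+dG/rG, 7.64 and 9.43 under the combination, and 24.7 and 23.0 with R848. Thus Col4a2 was higher in both PNPi+dG/rG+polyU libraries than in the 6 of vehicle, polyU and PNPi+dG/rG, whereas Col4a1 overlapped vehicle and PNPi+dG/rG. The change of Col4a2 against vehicle was 0.81 ± 0.15 (adjusted p = 0.000141), under 2-fold, and that of Col4a1 was −0.23 ± 0.21 (adjusted p = 0.340). Against polyU, the changes were 0.49 ± 0.21 for Col4a1 (adjusted p = 0.0533) and 0.92 ± 0.15 for Col4a2 (adjusted p = 5.11e-05), both under 2-fold. Whether the changes of the 2 genes differ from each other was not tested.

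The promoter windows of Col4a1 and Col4a2 are shown because these genes share a promoter region. Those of Col27a1 and Vcan, described below, are shown because these had the largest rises with PNPi+dG/rG+polyU among the members that have an entry. RefSeq (GRCm38.p6) windows from 250 bases before to 50 after the start site were given for 22 of the 38 members. Capitals mark matches, on either strand, to the NF-κB letters, which are GGGA and CC separated by any 4 bases. The windows are chr13:89742463-89742762 (minus strand) for Vcan, chr4:63215162-63215461 (plus strand) for Col27a1, chr8:11312777-11313076 (minus strand) for Col4a1 and chr8:11312555-11312854 (plus strand) for Col4a2.
Vcan: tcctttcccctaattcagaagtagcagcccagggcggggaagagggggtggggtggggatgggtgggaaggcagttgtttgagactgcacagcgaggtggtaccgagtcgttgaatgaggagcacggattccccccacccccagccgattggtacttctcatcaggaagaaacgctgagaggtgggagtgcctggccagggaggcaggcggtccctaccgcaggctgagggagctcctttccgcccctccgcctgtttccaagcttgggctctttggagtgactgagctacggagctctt
Col27a1: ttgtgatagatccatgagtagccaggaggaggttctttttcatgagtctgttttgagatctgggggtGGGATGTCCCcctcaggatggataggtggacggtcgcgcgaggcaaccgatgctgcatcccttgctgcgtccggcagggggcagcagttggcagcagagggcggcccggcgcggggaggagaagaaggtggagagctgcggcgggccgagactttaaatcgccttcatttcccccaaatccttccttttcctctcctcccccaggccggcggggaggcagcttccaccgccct
Col4a1: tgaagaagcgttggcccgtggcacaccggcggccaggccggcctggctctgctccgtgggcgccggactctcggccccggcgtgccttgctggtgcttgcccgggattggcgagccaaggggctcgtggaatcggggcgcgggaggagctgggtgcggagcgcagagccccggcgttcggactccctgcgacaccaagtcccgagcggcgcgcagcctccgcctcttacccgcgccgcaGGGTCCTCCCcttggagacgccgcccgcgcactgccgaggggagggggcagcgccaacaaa
Col4a2: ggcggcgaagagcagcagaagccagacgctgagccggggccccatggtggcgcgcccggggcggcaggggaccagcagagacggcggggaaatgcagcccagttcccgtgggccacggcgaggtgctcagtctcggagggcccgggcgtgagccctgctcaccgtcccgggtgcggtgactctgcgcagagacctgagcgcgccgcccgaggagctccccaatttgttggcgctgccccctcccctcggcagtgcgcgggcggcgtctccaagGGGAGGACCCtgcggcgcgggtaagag
The Col4a1 and Col4a2 windows share 78 bases, and the capitals in both are the same site read from opposite strands. The GENCODE annotation starts Col27a1 upstream of its window, which then lies within the gene. The NF-κB letters occurred in the windows of 11 of the 22 members, against 22.9% of 27025 genes. The AP-1 letters TGANTCA occurred in 1 of the 22 (8.97% of genes) and the TATA letters TATAAA in 3 (15.7% of genes), with neither in the 4 windows printed. The 3 sets of letters were searched on both strands, and the Col4a1 and Col4a2 matches count once for each gene. Such a match describes letters only, and the Vcan window held none of the 3.

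The other nonfibrillar collagens were near 0 without R848. Col6a1 and Col6a2, chains of the microfibril-forming type VI collagen, reached 11.8 and 14.0 CPM, and 9.24 and 9.77 CPM, with R848. Neither had a read in vehicle, so at the limit of 3 reads a library R848 was at least 76.5-fold higher for Col6a1 and at least 56.4-fold higher for Col6a2. Col12a1, a fibril-associated collagen, was at 14.1 and 12.7 CPM with R848 and at no more than 0.0802 CPM elsewhere.

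Proteoglycans carry sugar chains that hold water and bind growth factors. Vcan encodes versican, the large hyaluronan-binding proteoglycan that myeloid cells also make. Vcan (chromosome 13, 89655312 to 89742509) was at 4.04 and 3.48 CPM with vehicle, 3.98 and 4.47 with polyU, 4.40 and 4.12 under PNPi+dG/rG, 43.3 and 43.2 under the combination, and 230 and 227 with R848. The first 3 groups lay between 3.48 and 4.47 CPM, the combination stood well above them with its libraries nearly equal, and R848 was higher again. PNPi+dG/rG+polyU raised Vcan over vehicle by 3.53 ± 0.11 (adjusted p = 9.26e-14), and the interaction was 3.18 ± 0.15 (adjusted p = 1.41e-10). This interaction is how much larger the log2 change due to PNPi+dG/rG was in cells given polyU than in cells not given it.

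The small leucine-rich proteoglycans, which coat collagen fibers, did not share a pattern. Bgn (biglycan, also known as a Toll-like receptor ligand once released from matrix) was at 38.8 and 39.8 CPM with R848 and had no read in the PNPi+dG/rG+polyU libraries, so R848 was at least 185-fold higher. Dcn (decorin) was at 2.28 and 1.62 CPM with R848 and at most 0.141 CPM elsewhere. Lum (lumican) was not detectable above the limit of 3 reads in any library.

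Among glycoproteins, Fn1 encodes fibronectin, to which cells attach through integrins. Fn1 was at 1.12 and 1.57 CPM with vehicle, 0.739 and 0.639 with polyU, 1.41 and 1.66 under PNPi+dG/rG, 0.849 and 0.633 under the combination, and 85.8 and 87.7 with R848. The 4 libraries with polyU lay below the 4 of vehicle and PNPi+dG/rG, without overlap. The change with polyU was −0.95 ± 0.25 (adjusted p = 0.00670) and that with PNPi+dG/rG+polyU −0.86 ± 0.25 (adjusted p = 0.00653), both under 2-fold. Both pass 2-fold without vehicle replicate 1, at −1.19 and −1.10.

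Fbn1 encodes fibrillin-1, the backbone of elastic microfibrils. Fbn1 was at 0.505 and 0.618 CPM with vehicle, 1.08 and 1.57 with polyU, 0.391 and 0.348 under PNPi+dG/rG, 3.26 and 2.60 under the combination, and 11.7 in each R848 library. No 2 of the 5 groups overlapped. Fbn1 was the 1 expressed member that polyU raised, by 1.22 ± 0.30 (adjusted p = 0.00407). The combination raised it by 2.38 ± 0.30 over vehicle (adjusted p = 3.16e-06). The polyU call was lost without polyU replicate 2, at 0.95 (adjusted p = 0.0570), and with 1 CPM added to every value, at 0.57. Fbn1 reached 1 CPM only in the groups given polyU, so its selection was not independent of these comparisons. The fibulins, which link fibers and basement membranes, were seen only with R848, Fbln2 at 16.3 and 17.6 CPM and Fbln1 at 0.266 and 0.276 CPM, the lowest level in that class. Sparc (osteonectin), a collagen-binding glycoprotein, was at 21.0 and 22.0 CPM with R848 and at most 0.349 CPM elsewhere.

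Matricellular proteins sit in the matrix but act mainly as signals to cells. Thbs1 encodes thrombospondin-1, an activator of latent TGF-β. Thbs1 was at 6.90 and 8.09 CPM with vehicle, 9.66 and 9.59 with polyU, 8.44 and 6.84 under PNPi+dG/rG, 39.4 in each library of the combination, and 390 and 401 with R848. PolyU lay above vehicle without overlap, by 0.37 ± 0.10 (adjusted p = 0.00960), which is under 2-fold. The combination raised Thbs1 by 2.40 ± 0.10 over vehicle (adjusted p = 6.16e-12).

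Tnc encodes tenascin-C, which appears in wounds and is itself a Toll-like receptor ligand. Tnc was at 0.673 and 0.281 CPM with vehicle, 0.227 and 0.523 with polyU, 0.781 and 0.481 under PNPi+dG/rG, 1.34 and 1.48 under the combination, and 39.9 and 40.0 with R848. The combination raised it by 1.70 ± 0.45 over vehicle (adjusted p = 0.00398). This call was lost without vehicle replicate 2, at 1.07, and with 1 CPM added to every value, at 0.72. Tnc counted as expressed through the combination alone, so its selection was not independent of this comparison. Its interaction, 1.54 ± 0.64, missed the threshold (adjusted p = 0.0585). Postn (periostin) and Ccn2 (connective tissue growth factor, a classic TGF-β and YAP target) were near 0 without R848, with R848 at 11.9 and 12.1 CPM and at 23.1 and 21.3 CPM, against at most 0.114 and 0.116 CPM elsewhere.

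Lysyl oxidases crosslink collagen and elastin. Lox (chromosome 18, 52516067 to 52529867) was at 8.59 and 7.25 CPM with vehicle, 12.8 and 16.2 with polyU, 7.89 and 7.22 under PNPi+dG/rG, 105 and 114 under the combination, and 263 and 256 with R848. The levels stood in steps, with PNPi+dG/rG overlapping vehicle, polyU above both, the combination well above polyU and R848 highest. The combination raised Lox by 3.79 ± 0.11 over vehicle (adjusted p = 2.10e-13) and by 2.92 ± 0.11 over polyU (adjusted p = 8.17e-12), while polyU alone gave 0.87 ± 0.11 (adjusted p = 1.84e-05), under 2-fold. Its paralogs Loxl1 and Loxl2 were seen only with R848, at 6.27 and 5.66 CPM and at 7.38 and 7.44 CPM, and neither had a read in the PNPi+dG/rG+polyU libraries. R848 was thus at least 28.1-fold and at least 34.9-fold above the combination for Loxl1 and Loxl2, but 2.36-fold above it for Lox.

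The tissue inhibitors of metalloproteinases went different ways. Timp2, which also helps to activate pro-MMP2, was the 1 expressed member that was lower with R848, at 423 and 435 CPM with vehicle, 384 and 380 with polyU, 396 and 377 under PNPi+dG/rG, 274 and 266 under the combination, and 174 and 193 with R848. PolyU and PNPi+dG/rG overlapped, and all 4 treated groups lay below vehicle. The Timp2 difference between the combination and vehicle was −0.67 ± 0.05 (adjusted p = 7.25e-09), under 2-fold. Timp1, an inducible inhibitor, was at 3.20 and 3.26 CPM with vehicle, 3.35 and 3.54 with polyU, 2.73 and 2.65 under PNPi+dG/rG, 4.25 and 4.99 under the combination, and 24.1 and 26.1 with R848. Timp1 differed by 0.51 ± 0.16 between the combination and vehicle (adjusted p = 0.00921), under 2-fold, although no libraries of these groups overlapped. Timp3, the matrix-bound inhibitor, was at 36.4 and 31.0 CPM with R848 and at most 0.755 CPM elsewhere. Mmp2, the gelatinase that these inhibitors restrain, was at 0.0802 to 0.341 CPM in the 6 libraries of vehicle, polyU and PNPi+dG/rG, at 1.27 and 0.915 with PNPi+dG/rG+polyU, and at 5.26 and 4.10 with R848.

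Of the surface proteins of stromal cells, the PDGF receptor gene Pdgfrb, a pericyte and fibroblast marker, was the 1 expressed member. Pdgfrb was at 0.112 and 0.169 CPM with vehicle, 0.114 and 0.407 with polyU, 0.287 and 0.187 under PNPi+dG/rG, 3.19 and 4.29 under the combination, and 36.8 and 39.1 with R848. Vehicle rested on 2 and 3 reads and the combination on 45 and 61. Pdgfrb counted as expressed through the combination alone, so its selection was not independent of the comparison with vehicle. The combination raised Pdgfrb by 4.75 ± 0.51 over vehicle (adjusted p = 6.57e-07), a size that depends on the offset at such low levels and was 2.05 with 1 CPM added to every value, where Lox was at 3.63, Vcan at 3.22, Col27a1 at 2.78 and Thbs1 at 2.25. Pdgfra, the other PDGF receptor, was at 1.33 and 1.62 CPM with R848 and at most 0.283 CPM elsewhere. Thy1 was not detectable above the limit in any library. Fap (fibroblast activation protein) was at 0.495 and 0.703 CPM under the combination and 0.266 and 0.582 with R848, which overlapped, and at 0.104 to 0.341 CPM in the other 6 libraries.

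The contractile genes of smooth muscle and myofibroblasts followed R848. Acta2 (α–smooth muscle actin) was at 1.01 and 0.674 CPM with vehicle, 1.99 and 1.05 with polyU, 1.09 and 0.749 under PNPi+dG/rG, 0.637 and 0.915 under the combination, and 36.8 and 38.2 with R848. The 8 libraries without R848 lay between 0.637 and 1.99 CPM, and Acta2 passed no call in the comparisons that leave R848 out when all libraries were used. Without polyU replicate 2 it gained 3 calls, at 1.27 for polyU against vehicle, −1.38 for the combination against polyU and −1.51 for the interaction. The call against polyU was also gained without PNPi+dG/rG+polyU replicate 2, at −1.18, and that of the interaction without vehicle replicate 1, at −1.34. Acta2 reached 1 CPM in both libraries of the polyU group alone. Tagln (transgelin), a partner of actin in smooth muscle, was at 13.8 and 13.4 CPM with R848 and at most 0.142 CPM elsewhere. Grem1 (gremlin-1), a secreted BMP antagonist of stromal cells, was at 17.5 and 15.2 CPM with R848 and at most 0.0708 CPM elsewhere.

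**Figure D2:**
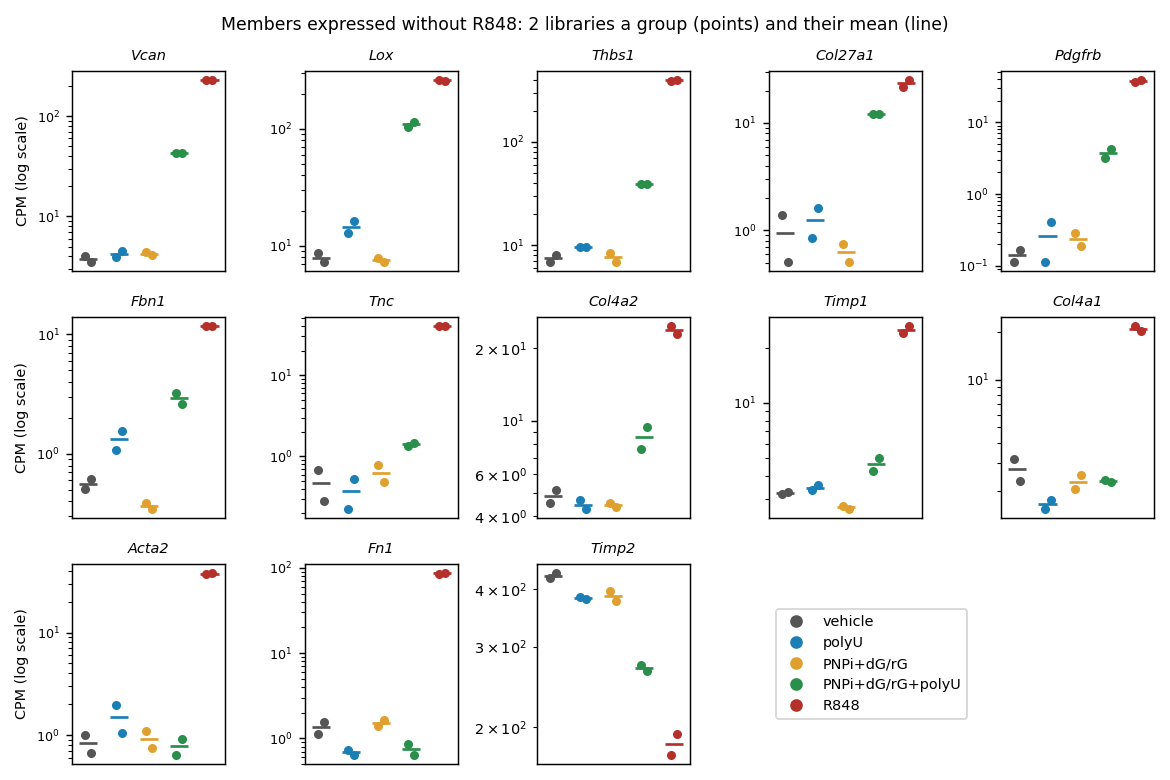
CPM on a log scale for the 13 members expressed without R848, with 1 point a library, 2 libraries a group and a line at the group mean (the axis range differs between panels). In the Vcan, Lox, Thbs1, Col27a1 and Pdgfrb panels both PNPi+dG/rG+polyU points lie above all points of vehicle, polyU and PNPi+dG/rG, and in the Timp2 panel R848 is lowest, at 174 and 193 CPM.

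Over the 13 expressed members, polyU and PNPi+dG/rG can each be set beside the combination. No label names DOTAP without polyU, so effects of polyU cannot be told apart from those of its carrier. Nor can those of ulodesine be told apart from those of the nucleosides. PolyU changed 1 of 13, Fbn1, against 3.99% of the 11978 genes tested in either direction and 3.21% higher. Another 5 (Col4a1, Fn1, Lox, Thbs1 and Timp2) had an adjusted p under 0.05 with less than 2-fold. The polyU count was 3 without vehicle replicate 1 (with Col27a1 and Fn1), 4 without polyU replicate 1 (with Fn1, Lox and Pdgfrb) and 0 with 1 CPM added to every value. Without polyU replicate 2 it was again 1, but with Acta2 in place of Fbn1. The median change of the 13 with polyU was 0.17, beside 0.02 over all genes tested, and ran from 0.02 without polyU replicate 2 to 0.28 without vehicle replicate 1.

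PNPi+dG/rG without polyU changed 0 of 13 by limma, against 0.0751% of all genes tested. An unadjusted p under 0.05 was found for 1 of 13 (Timp2), as for 1076 of the 11978 genes tested. For 9 of the 13 the 95% interval of this change lay within 2-fold in both directions. It reached farther for Col27a1, Fbn1, Tnc and Pdgfrb, from −1.48 to 0.60, −1.23 to 0.03, −0.47 to 1.46 and −0.34 to 1.84, so a 2-fold change of these 4 lay within their intervals. The median change was −0.06, beside 0.02 over all genes.

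PNPi+dG/rG+polyU raised 7 of 13 over vehicle (Pdgfrb, Col27a1, Lox, Vcan, Thbs1, Fbn1 and Tnc) and lowered 0, against 22.4% of all genes called in either direction, 8.12% higher and 14.3% lower. Its median change was 1.70 over the 13, beside −0.22 over all genes, and ran from 1.07 without vehicle replicate 2 to 2.24 without vehicle replicate 1. With 1 CPM added to every value this median was 0.72. The same 7 were raised over polyU alone, where 15.5% of all genes were called and 5.29% were higher, with a median of 1.16 beside −0.24. Of these, Fbn1 lost its call against polyU with 1 CPM added (0.76), without polyU replicate 1 (0.89) and without PNPi+dG/rG+polyU replicate 1 (1.00, just under 2-fold), and Tnc lost its call with 1 CPM added (0.82). The interaction was positive and past the threshold for 7 of 13, against 13.4% of all genes in either direction and 4.55% positive. Of these 7, 6 had also changed against vehicle, with Col4a2 in place of Tnc. These 3 comparisons share libraries and are not independent of one another. Of the 13, 8 reached 1 CPM in both libraries of vehicle or of PNPi+dG/rG. Of these 8, polyU changed 0 by limma. An unadjusted p under 0.05 was found for 5 of the 8, as for 5612 of the 11978 genes tested. The combination raised 3 of the 8 over vehicle and over polyU (Lox, Thbs1 and Vcan), and 4 had a positive interaction (the same 3 and Col4a2). Their median changes were −0.01 with polyU, 0.66 for the combination against vehicle and 0.71 against polyU. Centring each library on its median moved the share of higher calls among all genes called from 36.2% to 48.9% for the combination against vehicle, from 34.2% to 52.3% against polyU and from 33.9% to 57.0% for the interaction. With that centring the combination raised 8 of the 13 over vehicle and 8 over polyU, and 9 had a positive interaction.

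**Figure D3:**
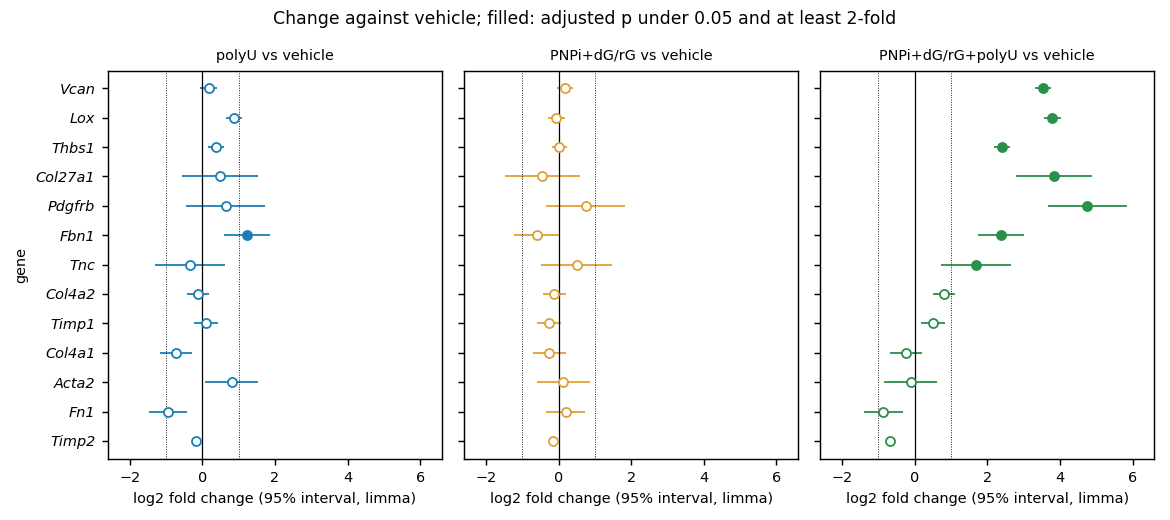
Change against vehicle of the 13 expressed members for polyU, PNPi+dG/rG and PNPi+dG/rG+polyU, as log2 fold change with its 95% interval from limma (x axis). Filled points passed an adjusted p under 0.05 and 2-fold (dotted lines), which was 1, 0 and 7 members in the 3 panels.

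With R848, 12 of the 13 expressed members were called higher than vehicle and 1 lower, where 39.2% of all genes were called, 8.89% higher and 30.3% lower. These calls use the libraries that sorted the classes and are a description. The R848 median over the 13 was 5.04, beside −0.50 over all genes. Centring each library on its median took the median over all genes to 0.09 and the share of higher calls among all genes called from 22.7% to 46.0%. It left 12 of the 13 called higher and 0 lower, as Timp2 lost its call. Of the 36 members with more than 3 reads in both R848 libraries, 34 were higher in both than in all 8 other libraries, as were 14.4% of the 13133 genes over that limit. The exceptions were Timp2 and Fap. This count is also a description, because the list was chosen with earlier results of these data known. The rule for the class seen only with R848 nearly fixes it for the 11 members there.

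The distance between R848 and the combination differed widely among the members. By pooled reads, R848 was 1.99-fold above PNPi+dG/rG+polyU for Col27a1, 2.36-fold for Lox, 2.76-fold for Col4a2 and 3.99-fold for Fbn1. It was 5.27-fold above for Vcan and 5.49-fold for Timp1, and 10.1-fold and 10.2-fold for Thbs1 and Pdgfrb. Beyond these came Tnc at 28.3-fold, Acta2 at 48.6-fold and Fn1 at 117-fold (95% counting interval 76.7 to 190). The plot of levels with and without R848 shows Col27a1 and Lox close to the line of equal level and Fn1, Col1a1 and Bgn far above it.

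**Figure D4:**
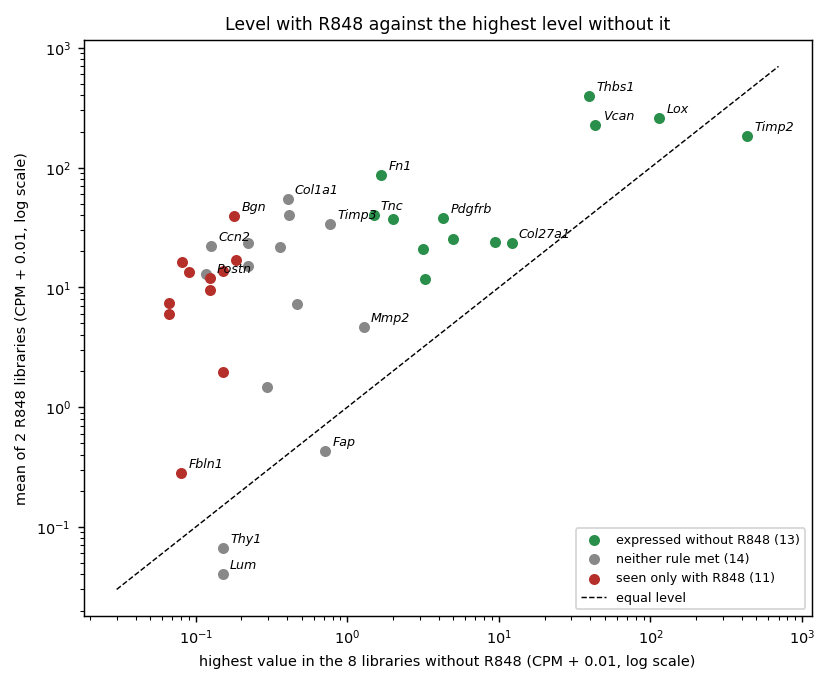
Mean CPM of the 2 R848 libraries (y axis) against the highest value in the 8 libraries without R848 (x axis), both as CPM + 0.01 on log scales, with 1 point a gene colored by class and a dashed line of equal level. Timp2, Fap, Thy1 and Lum lie below the line, and Col1a1 and Bgn lie more than 100-fold above it.

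Levels of different genes can be compared only per length. Per kilobase of exon, Timp2 led in vehicle at 110 CPM, followed by Timp1 at 3.64, Lox at 1.66 and Thbs1 at 1.23. With PNPi+dG/rG+polyU, Timp2 was at 69.3 and Lox came next at 22.9, before Thbs1 at 6.48, Timp1 at 5.20 and Vcan at 2.99. With R848 the order was Thbs1 at 65.1, Lox at 54.2, Timp2 at 47.1, Timp1 at 28.3, Acta2 at 17.1 and Vcan at 15.8 CPM per kilobase.

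The 2 R848 libraries held these transcripts to the same extent. For the 23 members over the limit with R848 that were not expressed elsewhere, the ratio of R848 replicate 2 to replicate 1 in CPM had a median of 1.01 and ran from 0.711 to 2.19. For the 18 of them at 5 CPM or more it ran from 0.852 to 1.24.

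Markers of mesenchymal cells other than the members went both ways with R848. Of 26 such genes, 3 were seen only with R848, which were Prrx1 (3.24 and 3.12 CPM), Prrx2 (0.372 and 0.367 CPM) and Cdh2 (0.690 and 1.13 CPM), and 8 had more than 3 reads in both R848 libraries. Cdh11, a cadherin of fibroblasts, was at 7.28 and 7.75 CPM with R848 and at most 0.227 CPM elsewhere. The summed level of the 26 was 259 to 270 CPM with vehicle, 158 to 166 with polyU, 201 to 204 with PNPi+dG/rG, 110 to 114 under the combination and 357 to 380 with R848, most of it from Pdpn, Nes and Cspg4. Of the 6 tested against vehicle, R848 was called higher for 4 and lower for 2, where 8.89% of all genes were higher and 30.3% lower. Only 3 of the 26 counted as expressed without R848. Prrx1 and Cdh11 passed the filter for testing through R848 alone, so their direction was set by that filter. Nes (nestin) was lower, at 88.7 and 86.0 CPM with vehicle, 8.99 and 7.53 under the combination and 7.49 and 8.85 with R848, as was Cspg4 (the pericyte proteoglycan NG2), at 28.9 and 27.2 CPM, 2.62 and 2.04, and 0.0531 and 0.796. Tcf21, Osr2 and Dpt, defining genes of tissue fibroblasts, had no read in any library. The part of other cell types in the R848 levels was not tested, and in bulk libraries more cells of a type and more RNA per cell cannot be told apart.

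All 17 listed macrophage markers were expressed, with sums of 25347 to 28028 CPM a library, but single markers differed between groups. Against vehicle, R848 was called higher for 3 (Cd14 at 2.69, Spi1 at 1.15 and Ptprc at 1.04 on the log2 scale) and lower for 3 (Cx3cr1 at −3.32, Mertk at −2.87 and Fcgr1 at −1.07). Over all genes tested, 39.2% were called with R848, 8.89% higher and 30.3% lower. The combination raised 1 of the 17 markers, Cd14, by 1.20 and lowered 2, Mertk by 2.17 and Cx3cr1 by 2.04. Over all genes tested it raised 8.12% and lowered 14.3%. The 10 endothelial markers, of which 4 counted as expressed without R848, summed to 243 to 248 CPM with vehicle. Their sums were 145 to 146 CPM under the combination and 76.9 to 82.9 with R848. The 10 epithelial markers summed to at most 0.899 CPM and the 6 lymphocyte markers to at most 0.337 CPM. The 10 osteoblast, chondrocyte and adipocyte genes summed to 3779 to 4068 CPM with vehicle and 1507 to 1534 with R848. Of these 10, 3 counted as expressed without R848 and 5 had at most 3 reads in every library. Alpl (alkaline phosphatase) was seen only with R848, at 0.850 and 1.10 CPM. Neutrophil and erythroid genes summed to 2.97 and 3.54 CPM with vehicle and 21.2 and 23.4 with R848, which was nearly all S100a8. Of the 6 melanocyte genes, Mitf, which macrophages also use, was expressed. Y-linked transcripts were at most at 1 read a library for each of 4 genes.

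Beyond the members, 129 other matrix genes in 4 lists were measured, 71 of which were expressed without R848. This class can take in genes that reached 1 CPM only in groups given polyU. Selection of the 71 was thus not independent of the comparisons with polyU and the combination. PNPi+dG/rG+polyU raised 11 of the 71 and lowered 20, against 8.12% higher and 14.3% lower of all genes tested. Its median change over the 71 was −0.51, beside −0.22 over all genes. Of the 13 members it raised 7 and lowered 0. Col27a1, Pdgfrb, Tnc and Fbn1 among these 7 counted as expressed only through groups given polyU. PolyU raised 3 and lowered 5 of the 71, against 3.99% of all genes in either direction and 3.21% higher. PNPi+dG/rG changed 0, against 0.0751%. The interaction was positive for 10 and negative for 8, against 13.4% of all genes in either direction and 4.55% positive. Among structural proteins, Agrn (agrin) rose by 2.02 ± 0.06 with the combination, and Emilin1 fell by 1.32 on the log2 scale. In collagen synthesis, Bmp1, the procollagen C-proteinase that also cleaves pro-lysyl oxidase, rose by 4.72 ± 0.30, and the crosslinking enzyme Loxl3 fell by 1.58. Among proteases and inhibitors, the aggrecanase and versican-cleaving Adamts4 was at 0.0561 and 0.112 CPM in vehicle and 99.4 and 89.8 under the combination, Mmp14 rose by 2.57 ± 0.04 and Serpinb2 by 5.24 ± 0.42, while Plau (urokinase) fell by 4.99, Adam8 by 1.24 and Mmp19 by 1.22. Among receptors and the TGF-β pathway, Sdc4 rose by 3.04 ± 0.04 and Itga9 by 1.32 ± 0.13, Itgb8 was at 0.224 and 0 CPM in vehicle and 16.9 and 18.1 under the combination, and Smad7 fell by 3.53, Itgb3 by 2.46 and Smad3 by 2.05. Others were seen only with R848, among them Col6a3 at 9.93 and 10.0 CPM, Ccn1 at 7.70 and 6.89, Adamts2 at 5.68 and 6.06, and Nid1 at 4.67 and 4.26. Lower levels in this class were those of the integrin gene Itga11 (3.66 and 4.29 CPM), Mmp3 (2.87 and 1.78) and the collagen receptor Ddr2 (2.66 and 2.42).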

How the data were processed

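BMDM RNA was sequenced from 10 libraries in 5 groups, and the group and replicate number of each were taken from the sample labels. According to the methods and labels, the authors made stranded mRNA libraries, sequenced 50 bp single reads, mapped them to GRCm38 with STAR and counted reads per gene of an Ensembl annotation. The submitters' processing notes name STAR 2.27a and bcl2fastq 2.19.1.403. The authors deposited 1 table in CPM with an offset of 0.0001 on every value. CPM corrects neither for gene length nor for a few induced genes taking a larger share. The rule for reads on overlapping genes, or for strand in counting, is not given in the sources used here. No column was left unused.

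The depth of each library was computed from the step between its low values, of which 100% were whole multiples within 0.1 read. Intervals on pooled reads are exact 95% intervals for the ratio of 2 counts, cover counting error only, and take reads as independent molecules. Members were named with all values. Other matrix genes were named if seen only with R848 (the 3 highest of a list) or if among the 3 largest changes each way with PNPi+dG/rG+polyU at 10 CPM or more. Cdh11 was named after its values were seen. The members, classes, lists and tests were chosen with earlier results of these data known.

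Changes were tested with limma 3.58.1 in R 4.3.3 (eBayes with trend and robust, statmod 1.5.0) on log2 of the deposited CPM, fitted to all 10 libraries with group as the 1 factor. Tests covered the 11978 genes that reached 1 CPM in 2 or more libraries, with Benjamini-Hochberg adjustment. A gene was called at an adjusted p under 0.05 and at least 2-fold, and "raised", "lowered", "rose" and "fell" refer to such calls. Of the 38 members, 34 were tested, 21 of them through R848 alone, and tests are given for the 13 expressed without R848. Data were also simulated from these libraries, and 11664 genes passed the filter. Every gene was given the same variation beyond counting, and the genes changed averaged at least 2 CPM over the 10 libraries. The recovery given here thus does not cover members at lower levels in vehicle, such as Tnc and Pdgfrb. With PNPi+dG/rG+polyU against vehicle, 99 of 100 genes changed 2-fold and 100 of 100 changed 4-fold were recovered by adjusted p alone. The median estimate for the 2-fold changes was 1.02 on the log2 scale. How many also passed the 2-fold limit of a call was not tested. In this comparison 6 unchanged genes were called, and PNPi+dG/rG against vehicle, simulated without change, gave 0 calls. Positions and exon lengths are from GENCODE M21 (GRCm38), and promoter windows from RefSeq. Tables were handled in Python 3.11.15 with pandas 2.3.3 and scipy 1.17.1.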

Additional observations from a re-analysis of the deposited data

Results flagged for a closer look

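For 7 of the 13 members expressed without R848, the effect of PNPi+dG/rG differed by whether polyU was present, by the interaction term of the limma fit (adjusted p under 0.05 and at least 2-fold, against 13.4% of all genes tested). The effect with polyU minus that without it, on the log2 scale, was 3.80 for Col27a1, 3.35 for Pdgfrb, 3.18 for Vcan, 2.99 for Lox, 2.01 for Thbs1, 1.76 for Fbn1 and 1.04 for Col4a2. Col4a2 sat at the limit, and its value was under 1 in 4 of 17 alternative settings. With 1 CPM added to every value, Fbn1 was under 2-fold, at 0.95, and Pdgfrb was at 1.79. Col27a1 and Pdgfrb counted as expressed through PNPi+dG/rG+polyU alone, and Fbn1 only through groups given polyU. Their selection was thus not independent of the interaction. Of the 8 members at 1 CPM in both libraries of vehicle or of PNPi+dG/rG, 4 passed. Over all genes tested, 4.55% had a positive interaction past the threshold.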

How the results depend on the processing

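The count of members seen only with R848 depended on the limit of detection. It was 11 with 3 reads, 3 with 1 read, 17 with 10 reads and 19 with 0.5 CPM, and 11 to 14 when single libraries were left out, being highest without PNPi+dG/rG replicate 2. Counting genes as expressed from 0.5 or 5 CPM gave 14 or 6 expressed members in place of 13. The polyU count of 1 became 0 with a pseudocount of 1 CPM, which shrinks changes of low genes by construction, and ran from 1 to 4 when single libraries were left out. The same omissions left 0 calls for PNPi+dG/rG, 6 to 8 for PNPi+dG/rG+polyU against vehicle, 6 to 8 against polyU, 6 to 8 for the interaction and 13 with R848. Where an omission leaves 1 library in a group, that library is assumed to vary like the other groups.

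All other counts stayed within 1.5 times under pseudocounts of 0.1 and 1 CPM, both filters on low values, median centring, plain eBayes and a fit of the compared groups alone, which gives no interaction. No member reversed its direction while called. Fbn1 lost its polyU call at a pseudocount of 1 CPM (0.57) and without polyU replicate 2 (0.95). Centring each library on its median took Col4a2 over 2-fold against vehicle, at 1.02, and against polyU, at 1.18, and added Tnc (1.82) and Col4a1 (1.03) to the interaction.

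With a block for replicate number, 1 member was called for polyU, 0 for PNPi+dG/rG and 13 for R848. The combination had 7 against vehicle, 7 against polyU and 7 in the interaction, and no call of a member changed. Same-numbered libraries did not deviate alike across groups: over the 10 pairs of groups, correlations of same-numbered deviations ran from −0.286 to 0.109 (median −0.0230). Whether libraries shared a factor in another order was not tested.

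The planned edgeR and DESeq2 tests were not run, because the table holds normalized values with an offset. Depth limits what can be said of members at a few reads, and 2 libraries a group limit every interval.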
